A study of Mus musculus with 6 samples.

Results

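Glutathione transferases join glutathione to reactive compounds, and the transcription factor NRF2 drives many of the genes that make glutathione, supply NADPH and reduce quinones, peroxides and carbonyls. The set described here holds 39 such genes, taken from the deposited count table by gene symbol, of 22183 symbols in all. It has 19 transferases and 20 other genes of glutathione synthesis, NADPH supply, the thioredoxin system, detoxification and NRF2 itself. All 39 were found in the table and all 39 passed the filter on low counts.

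The data are messenger RNA counts from 6 mouse liver samples, 3 labelled DOX and 3 labelled PBS (phosphate-buffered saline). By their labels all 6 are of genotype BucheKI/KI-Hep and had DDC treatment, and the series describes butyrylcholinesterase as overexpressed in hepatocytes. DDC is the usual short name of a porphyrin-raising compound that injures liver and bile ducts, and DOX is a common short form of doxycycline, an inducer of engineered genes. Neither name is expanded in the labels, nor the S2W that begins each sample title, and no sex, age, strain or promoter of the knock-in is given there. The PBS samples therefore share both the knock-in genotype and the DDC treatment with the DOX samples, an effect of DOX itself and one of the enzyme cannot be told apart, and the set has no sample without DDC. Nothing states that each library is a different animal, so the spread behind the p-values is that of these libraries and could be technical.

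Total counts ran from 32476725 to 40298256 in the DOX libraries and from 40592030 to 41921404 in the PBS libraries. Bche, the gene of butyrylcholinesterase, was measured at 1938, 1867 and 1763 CPM (counts divided by library size, with TMM correcting for library composition) in DOX samples, against 177, 177 and 206 CPM in PBS samples, a 9.94-fold rise (log2 fold change 3.31, SE 0.14, adjusted p = 1.65e-07 by edgeR). Of the hepatocyte markers 4 of 9 rose, with a summed level of 100906 to 124531 CPM in DOX and 94746 to 101602 CPM in PBS samples. Most of that sum was Alb, which did not pass (82252.5 ± 10943.6 CPM in DOX and 71321 ± 1185 CPM in PBS, SD, n = 3 each). Counts of called markers are to be read against all genes tested, of which 13.5% rose and 14.0% fell. Of 10 pericentral hepatocyte markers 6 fell and 1 rose, with a summed level of 2950 to 3815 CPM in DOX and 4302 to 5777 CPM in PBS samples, whereas 5 of 10 periportal markers rose (5021 to 5105 CPM in DOX, 3545 to 4306 CPM in PBS). The largest part of the periportal sum was Pck1, which rose (2654 ± 165 CPM in DOX and 1769 ± 347 CPM in PBS). Cyp2a5, among the 6 pericentral markers that fell, held much of the pericentral difference (865 ± 266 CPM in DOX and 1666 ± 166 CPM in PBS). Of 10 stellate cell and fibroblast markers 7 fell (932 to 1290 CPM in DOX, 1592 to 1931 CPM in PBS). Of 10 bile duct markers 3 fell and 1 rose, and their summed levels overlapped (564 to 811 CPM in DOX, 802 to 974 CPM in PBS). Most of that sum was Spp1, which did not pass (533 ± 105 CPM in DOX and 717 ± 72.2 CPM in PBS, SD, n = 3 each). Of 10 macrophage markers 4 rose (1279 to 1730 CPM in DOX, 976 to 1027 CPM in PBS). Gpnmb, among the 4, held much of the difference (538 ± 280 CPM in DOX and 224 ± 32.2 CPM in PBS). Of 10 endothelial markers 4 rose (284 to 339 CPM in DOX, 247 to 276 CPM in PBS), and of 7 neutrophil markers tested 3 rose and 2 fell. Of 6 lymphocyte markers tested 1 fell, a share near that of all genes (1.68 to 3.39 CPM in DOX, 5.13 to 7.32 CPM in PBS). All 6 had negative log2 fold changes, from -1.54 to -0.78, at only 1 to 79 counts per library. No marker of these lists had 0 counts over the 6 libraries, and the part of these lists in the results below was not tested.

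NRF2 is held in the cytoplasm and marked for destruction by KEAP1, a sensor of electrophiles. When KEAP1 is modified, NRF2 enters the nucleus, pairs with a small MAF protein and binds antioxidant response elements near its target genes. In mouse liver these genes are known for clearing drugs, toxins and oxidants.

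In DOX samples 3 of the 39 genes rose and 10 fell at an adjusted p under 0.05 by edgeR's quasi-likelihood test, and 26 did not pass. The 3 that rose are the transferases Gstm5, Gstt3 and Gstk1. Of the 10 that fell, 2 are transferases (Gstt2 and Gstm4), and the other 8 are Ugdh, Gclc, Ephx1, Srxn1, Cbr3, Slc7a11, Me1 and Osgin1. No member outside the transferases rose by edgeR; at an unadjusted p under 0.05 the number was also 0, and by DESeq2 it was 0. Over all 14681 genes tested, 13.5% rose and 14.0% fell, against 7.69% and 25.6% of the members. The transferases had 15.8% higher and 10.5% lower, and the other 20 genes 0 higher and 40% lower. The median log2 fold change was -0.19 over the members, -0.09 over the transferases and -0.24 over the others, beside -0.01 over all genes tested. In bulk liver RNA, fewer cells of a type and less mRNA per cell cannot be told apart. Scaled by library totals alone, 3 members rose and 17 fell, while the median of all genes moved to -0.16 and that of the members to -0.35. On that scale 23.1% of the calls over all genes were rises, against 48.9% with TMM.

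**Figure D1:**
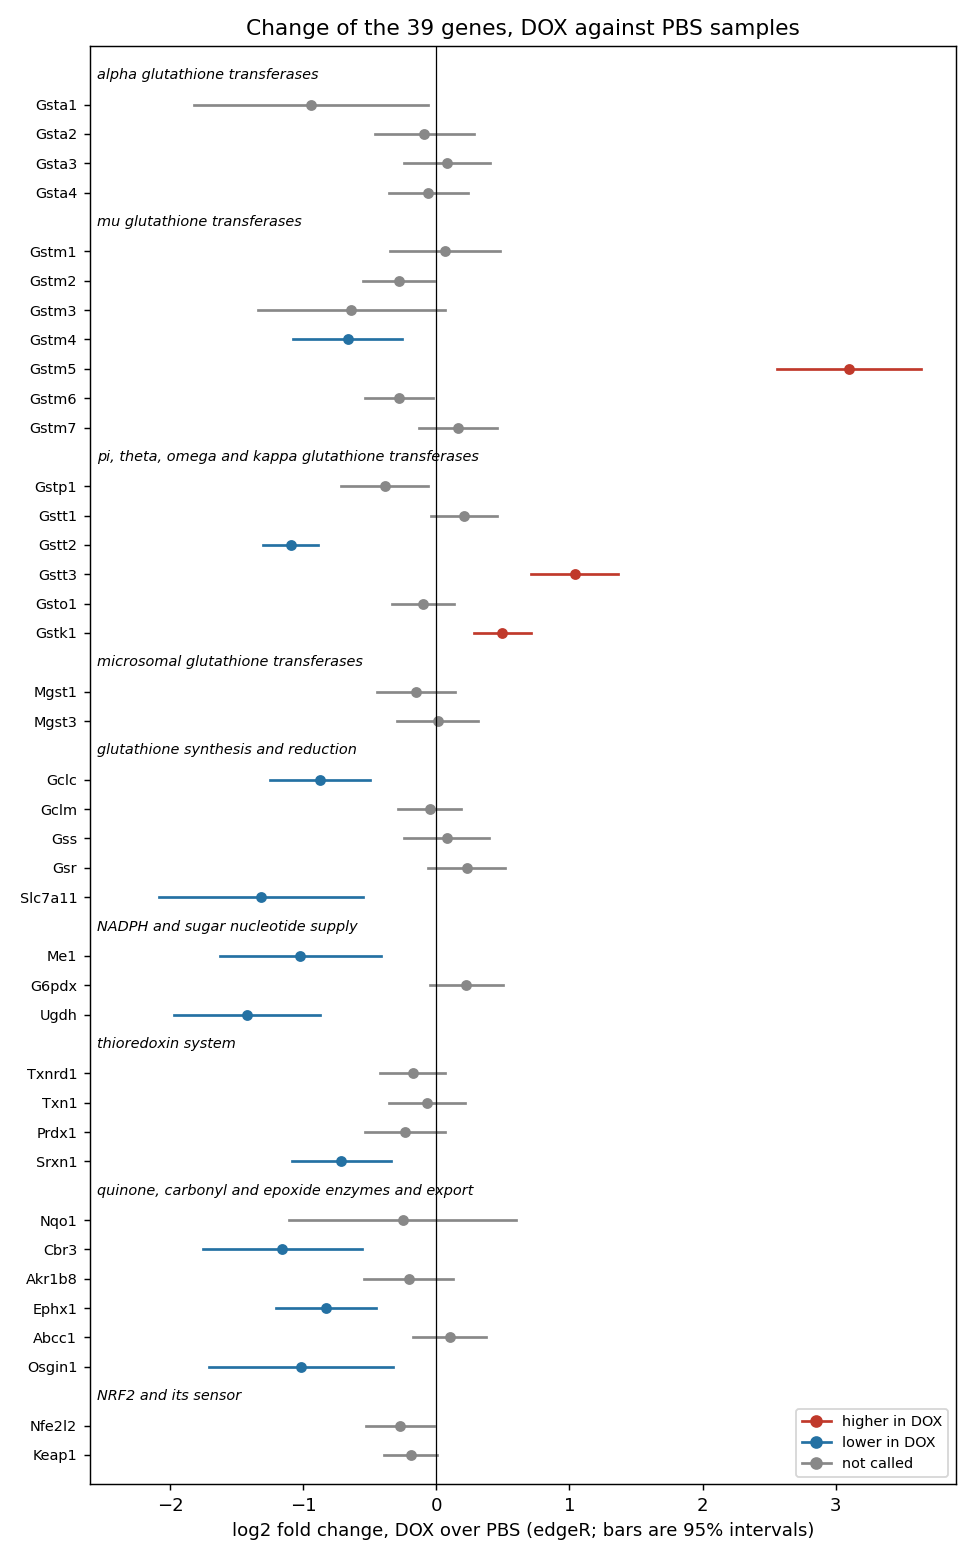
Log2 fold change of DOX over PBS for each of the 39 genes, grouped by role, with 95% intervals from the edgeR fit. The 3 genes in red rose and the 10 in blue fell; Gstm5 stands alone at 3.10, and every gene outside the transferases is either blue or grey.

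Nfe2l2, the gene of NRF2 (chr2:75675513-75704663, minus strand, RefSeq GRCm38.p6), was measured at 101, 128 and 122 CPM in DOX samples and 131, 144 and 150.2 CPM in PBS samples. Every DOX value lay below every PBS value, but the change did not pass (log2 fold change -0.27, SE 0.12, adjusted p = 0.102). Keap1, its sensor (chr9:21229730-21239332, minus strand), stood at 62.7, 59.0 and 59.4 CPM in DOX samples and 68.4, 69.5 and 68.7 CPM in PBS samples. These groups also did not overlap, with a log2 fold change of -0.19 (SE 0.09, adjusted p = 0.141) and a 95% interval of -0.39 to 0.01. Of the exon bases of Keap1, 10.9% overlap the antisense gene Gm16754. Non-overlap of this kind was common, at 44.1% of all genes tested and 19 of the 39 members. Both genes passed as lower when libraries were scaled by their totals alone (adjusted p = 0.0150 for Nfe2l2 and 0.0147 for Keap1), and Nfe2l2 also without DOX 2 (0.0477). The alternatives gave adjusted p-values of 0.0150 to 0.306 for Nfe2l2 and 0.0147 to 0.276 for Keap1.

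The core of the antioxidant response element was searched for as TGACNNNGC, on both strands. The search took the 250 bases upstream of each start with a promoter window (GRCm38.p6). These starts do not always include the outer start of a gene's RefSeq span. Windows were held for 34 of the 39 members, and 10 of these 34 (29.4%) had at least 1 match in any of their windows, as had 13.9% of the 11530 tested genes with a window. A match was found for 1 of the 8 members with a window that fell, 1 of the 3 that rose and 8 of the 23 that did not pass. Members without a window are Gclc, Gsr, Gsta4, Gstt2 and Abcc1. Slc7a11 and Osgin1, which both fell, have windows only inside their RefSeq spans. That of Slc7a11 is chr3:50443614-50443863, in a minus-strand span of chr3:50364936-50499087. That of Osgin1 is chr8:119436897-119437146, in a plus-strand span of chr8:119425882-119446257. The bases upstream of their outer starts were not searched. The windows of 4 members are shown, since these are the largest rise (Gstm5), the largest fall (Ugdh), a glutathione synthesis gene that did not pass (Gclm) and a gene that fell with no match here (Srxn1). Each is written 5′ to 3′ in the direction of the gene, ends at the base before the start and has the matches in capitals.
Gstm5, plus strand, chr3:107895604-107895853: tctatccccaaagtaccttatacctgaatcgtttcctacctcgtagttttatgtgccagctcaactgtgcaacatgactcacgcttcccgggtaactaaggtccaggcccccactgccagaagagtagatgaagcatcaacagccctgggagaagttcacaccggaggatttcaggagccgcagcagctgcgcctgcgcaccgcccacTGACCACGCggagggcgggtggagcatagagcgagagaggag
Ugdh, minus strand, chr5:65435843-65436092: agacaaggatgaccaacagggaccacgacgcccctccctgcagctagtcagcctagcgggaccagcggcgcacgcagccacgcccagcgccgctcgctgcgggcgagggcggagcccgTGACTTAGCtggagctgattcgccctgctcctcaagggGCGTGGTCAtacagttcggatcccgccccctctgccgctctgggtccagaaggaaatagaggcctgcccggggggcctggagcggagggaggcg
Gclm, plus strand, chr3:122245307-122245556: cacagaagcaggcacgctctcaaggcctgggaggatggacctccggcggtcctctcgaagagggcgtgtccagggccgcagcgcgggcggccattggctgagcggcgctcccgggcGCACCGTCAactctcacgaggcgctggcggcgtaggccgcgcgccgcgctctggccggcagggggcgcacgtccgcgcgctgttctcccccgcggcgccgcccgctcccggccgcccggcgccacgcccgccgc
Srxn1, plus strand, chr2:152105274-152105523: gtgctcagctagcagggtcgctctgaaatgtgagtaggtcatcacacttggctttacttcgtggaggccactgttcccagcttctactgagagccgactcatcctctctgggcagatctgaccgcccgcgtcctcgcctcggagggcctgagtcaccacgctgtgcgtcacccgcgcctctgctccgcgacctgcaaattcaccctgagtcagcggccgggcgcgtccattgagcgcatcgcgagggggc
In Gstm5 the match reads TGACCACGC, with its nearest base 34 bases upstream of the start. Ugdh has 2 matches, 124 and 86 bases upstream, of which TGACTTAGC reads on the gene's own strand and GCGTGGTCA on the other. The match of Gclm, GCACCGTCA, lies on the other strand, 126 bases upstream of the start used for its window. That start lies inside the gene's RefSeq span, which begins at chr3:122245487. The end of the printed Gclm window is therefore within the gene, and the match is nearer to the beginning of the span. A match is a run of letters in this window and not a measured binding site, and the windows leave out elements farther upstream. Runs that differ from TGACNNNGC at a fixed base were not counted. Such a run, TGAGTCAGC, is in the Srxn1 window and in that of Gstp1, which did not pass. Its reverse complement, GCTGACTCA, is in the window of Osgin1, which fell. The counts of genes with and without a match therefore hold for this pattern alone.

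Among the mu class transferases, which act on many electrophilic drugs and epoxides, 1 of 7 rose and 1 fell. These shares, 14.3% each, are near the 13.5% and 14.0% of all genes tested. Gstm5 was measured at 229.9, 116 and 188 CPM in DOX samples, against 19.9, 22.8 and 19.5 CPM in PBS samples. All 3 DOX libraries were far above all 3 PBS libraries, DOX 2 was the lowest of the DOX libraries, and the PBS libraries lay close together. The mean was 178 ± 57.8 CPM in DOX and 20.7 ± 1.78 CPM in PBS samples (SD, n = 3 each), an 8.57-fold rise (log2 fold change 3.10, SE 0.24, adjusted p = 0.000145). Gstm4 stood at 56.9, 50.4 and 32.2 CPM in DOX samples and 81.0, 73.4 and 67.0 CPM in PBS samples, a fall by 0.67 on the log2 scale (SE 0.18, adjusted p = 0.0242). The groups did not overlap, yet the call was lost without DOX 2 (adjusted p = 0.0607), PBS 1 (0.0748) or PBS 2 (0.0646), and the alternatives spanned 0.00319 to 0.0748.

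Gstm1, the most abundant transferase mRNA of these samples, had 4484, 3796 and 2714 CPM in DOX samples and 4007, 3002 and 3500 CPM in PBS samples. The groups overlapped, and the log2 fold change was 0.06 with a 95% interval of -0.35 to 0.48. Gstm3, the next mu gene by level, ranged from 441 to 926 CPM in DOX samples and from 888 to 1521 CPM in PBS samples (log2 fold change -0.64, adjusted p = 0.157). Its lowest value was in DOX 3 and its highest in PBS 1. Gstm2 and Gstm6 had log2 fold changes of -0.28 each and did not pass (adjusted p = 0.108 and 0.0988), although their groups did not overlap. Both passed as lower on library totals alone, with adjusted p = 0.0166 for Gstm2 and 0.0114 for Gstm6, in ranges of 0.0166 to 0.330 and 0.0114 to 0.322. Gstm7 had a log2 fold change of 0.16 (adjusted p = 0.396).

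All 7 mu genes lie together on chromosome 3, within 149.3 kb. Gstm5 opens the cluster at chr3:107895854-107898685 on the plus strand, and the other 6 are on the minus strand. Counted between lowest coordinates, its neighbour Gstm7 is 30.5 kb away and Gstm4, at the far end, 134.7 kb away. The rise of Gstm5 therefore stood beside 6 genes whose log2 fold changes lay between -0.67 and 0.16. Per unit of length, Gstm5 had 10.7, 6.09 and 15.5 times the level of Gstm4 in DOX samples and 0.652, 0.824 and 0.773 times its level in PBS samples. Reads of these paralogs can be shared, and how such reads were counted is not given in the sources read. No run of 50 bases of the Gstm5, Gstm4 or Gstm7 transcript was found in a transcript of another gene, against 33.0% of those runs for Gstm1 and 28.8% for Gstm3 (GENCODE M21). Of the exon bases of Gstm5, 13.9% overlap the antisense gene 4933431E20Rik, which had 7.49, 6.81 and 6.89 CPM in DOX and 6.63, 6.46 and 4.80 CPM in PBS samples.

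**Figure D2:**
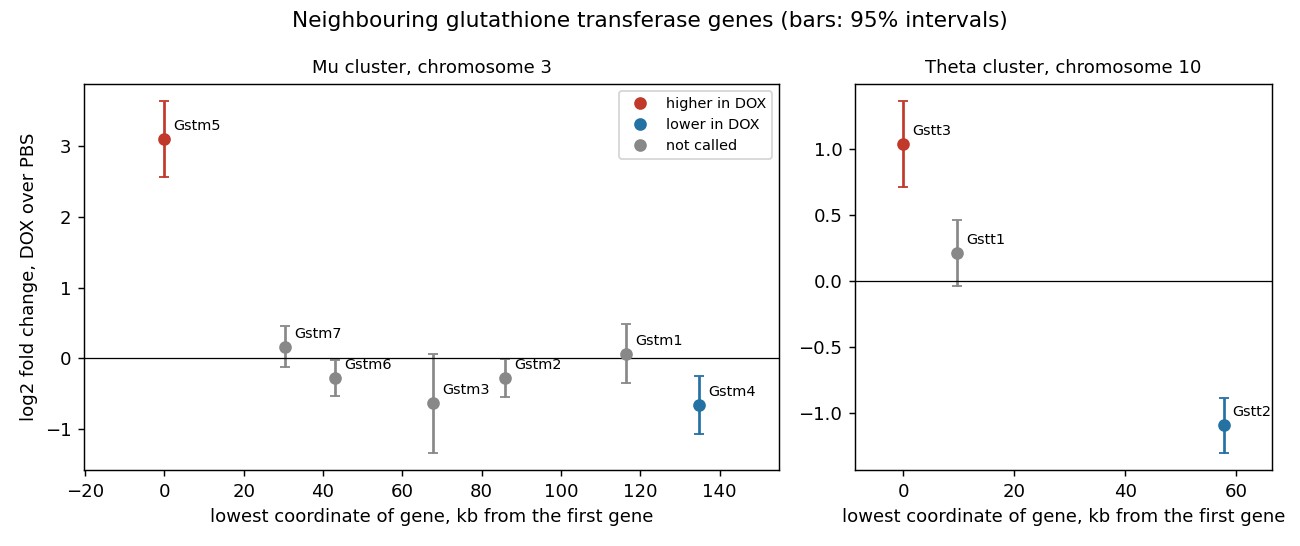
Log2 fold change of DOX over PBS (95% intervals) of the mu transferases on chromosome 3 and the theta transferases on chromosome 10, placed by the distance of each gene's lowest coordinate from that of the first gene in kb. In the mu cluster Gstm5 stands at 3.10 and the others between -0.67 and 0.16; in the theta cluster Gstt3 and Gstt2 point in opposite directions.

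The theta class acts on small halogenated and sulfate-bearing compounds, and of its 3 genes, all on the minus strand of chromosome 10 within 63.3 kb, 1 rose and 1 fell. Over all genes tested 13.5% rose and 14.0% fell, and 3 genes are too few to set against these shares. Gstt3 (chr10:75774117-75781422) was measured at 203, 249 and 249.8 CPM in DOX samples, against 129.9, 90.1 and 122 CPM in PBS samples. It rose 2.06-fold (log2 fold change 1.04, SE 0.15, adjusted p = 0.000866), with no overlap. Gstt2 (chr10:75831842-75837419) was measured at 37.3, 36.3 and 33.8 CPM in DOX samples, against 75.9, 75.0 and 78.2 CPM in PBS samples. Within each group its libraries lay within 4 CPM of each other, and it was 2.13-fold lower in DOX (log2 fold change -1.09, SE 0.09, adjusted p = 7.21e-05), the smallest p of the 39 genes. Gstt1, between them, had 252, 229 and 206 CPM in DOX samples and 196, 194 and 204 CPM in PBS samples. Its groups did not overlap, but the log2 fold change of 0.21 did not pass (adjusted p = 0.186). Per unit of length the level of Gstt3 was 5.01, 6.31 and 6.79 times that of Gstt2 in DOX samples, against 1.57, 1.10 and 1.43 times in PBS samples. The coding sequences of Gstt2 and Gstt3 are 61.4% identical, and of the 50-base runs of Gstt3 26.0% are found in Gm20441, an annotated gene that shares exons with it. Gm20441 is not among the symbols of the table.

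Of the remaining soluble transferases, Gstk1, the kappa enzyme of mitochondria and peroxisomes, rose. It had 108, 93.4 and 104 CPM in DOX samples and 71.9, 73.9 and 70.4 CPM in PBS samples, with no overlap (log2 fold change 0.50, SE 0.10, adjusted p = 0.00427). Gstp1, the pi enzyme, had 366, 279 and 268 CPM in DOX samples and 383, 455 and 356 CPM in PBS samples. The groups overlapped by DOX 1, and the log2 fold change of -0.39 did not pass (adjusted p = 0.0728). It did pass with DESeq2 (0.0412), with no filter on low counts (0.0294), on library totals alone (0.0164) and with DOX 1 left out (0.0280), so that the alternatives spanned 0.0164 to 0.254. Of the 50-base runs of Gstp1, 62.3% are also in Gstp2, which had 0.857 to 2.49 CPM in DOX and 1.99 to 3.22 CPM in PBS samples. Gsto1, the omega enzyme that also reduces dehydroascorbate, had a log2 fold change of -0.10 (95% interval -0.33 to 0.14).

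In the alpha class, which reduces lipid peroxides, 0 of 4 genes passed by edgeR and 0 by DESeq2, and 1, Gsta1, had an unadjusted p under 0.05. Gsta1 had the lowest p, at 32.1, 26.3 and 15.2 CPM in DOX samples and 44.6, 64.2 and 32.4 CPM in PBS samples. Its lowest PBS and highest DOX values nearly met, and the log2 fold change of -0.94 (SE 0.36) had an adjusted p of 0.107 and an unadjusted p of 0.0399. Gsta3, the most abundant alpha mRNA, stood at 767 to 1115 CPM in DOX and 866 to 889 CPM in PBS samples, and Gsta2 and Gsta4 had log2 fold changes of -0.09 and -0.06. Gsta1 and Gsta2 are 97.6% identical in their coding sequences, and 89.7% of the 50-base runs of Gsta1 also occur in other genes, so their separate values are uncertain. The predicted gene Gm3776, which shares 82.9% of the runs of Gsta1, had 14.9, 9.25 and 6.70 CPM in DOX and 18.6, 24.1 and 13.7 CPM in PBS samples.

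The microsomal transferases, membrane proteins that guard against lipid peroxides, did not pass either, with 0 of 2 genes by edgeR, by DESeq2 or at an unadjusted p under 0.05. Mgst1 stood at 1868, 1696 and 1558 CPM in DOX samples and 1927, 2009 and 1755 CPM in PBS samples, with a log2 fold change of -0.15 (95% interval -0.44 to 0.14). Mgst3 had a log2 fold change of 0.01 (95% interval -0.29 to 0.32).

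Compared per unit of gene length, the transferase mRNA pool was dominated by Gstm1, with 39.2 ± 3.39% of the summed level of the 19 genes in DOX and 36.4 ± 3.32% in PBS samples (SD, n = 3 each). Mgst1 made up 18.2 ± 1.60% in DOX and 19.3 ± 1.82% in PBS samples. The summed level was 8003, 6669.9 and 5599 CPM per kilobase in DOX libraries and 7741, 6709 and 6572 in PBS libraries, and the groups overlapped. Gstm5 supplied 3.41, 2.06 and 3.98% of the pool in DOX samples, against 0.305, 0.403 and 0.353% in PBS samples. The theta class had 361, 363 and 341 in DOX libraries and 292, 268 and 297 in PBS libraries on the same scale, without overlap. Its 1.24-fold ratio was 1.11 with the deposited FPKM, which carry no correction for composition. The pi gene Gstp1 supplied 6.07 ± 0.420% of the pool in DOX and 7.68 ± 1.28% in PBS samples.

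**Figure D3:**
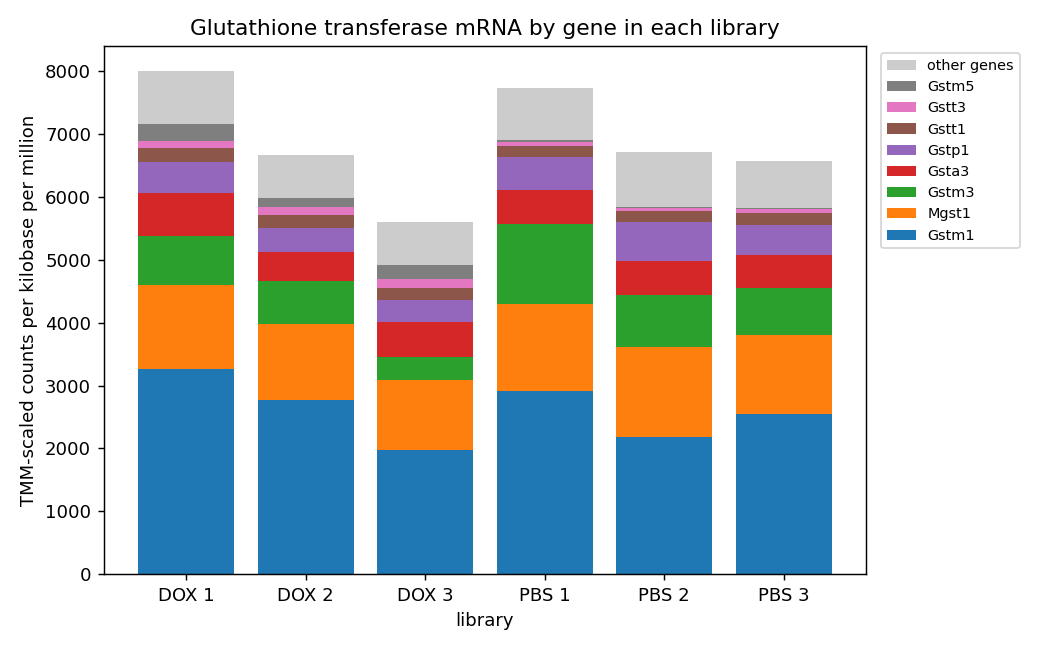
Level of the 19 transferase genes in each library, in TMM-scaled CPM per kilobase, stacked by gene, with DOX libraries left and PBS libraries right. Gstm1 and Mgst1 form the base of every bar; the dark grey band of Gstm5 is visible in the DOX bars and thin in the PBS bars, and the bar heights overlap between groups.

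Glutathione is made by glutamate-cysteine ligase, whose catalytic subunit is Gclc and whose modifier subunit is Gclm, and then by glutathione synthetase, Gss. Gclc (chr9:77754535-77794489, plus strand) was measured at 135, 108 and 113 CPM in DOX samples, against 189, 282 and 179.7 CPM in PBS samples. All DOX values were below all PBS values and PBS 2 stood highest (log2 fold change -0.87, SE 0.17, adjusted p = 0.00465). Gclm was measured at 197, 201 and 175 CPM in DOX samples and 192, 193 and 207 CPM in PBS samples. These groups overlapped, with a log2 fold change of -0.05 and a 95% interval of -0.29 to 0.19. Per unit of length the level of Gclc was 0.404, 0.319 and 0.382 times that of Gclm in DOX samples, against 0.582, 0.862 and 0.513 times in PBS samples. No test was run on this ratio.

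Slc7a11, the cystine importer that feeds glutathione synthesis, was the lowest of the 39 genes per unit of length. It had 1.27, 1.92 and 2.10 CPM in DOX samples and 4.54, 6.25 and 2.32 CPM in PBS samples, a fall by 1.32 on the log2 scale (SE 0.35, adjusted p = 0.0178). The PBS 3 value was close to the highest DOX value. The call was lost without DOX 1 (adjusted p = 0.0734) or PBS 2 (0.0783), in a range of 0.000980 to 0.0783. Gss and Gsr, the reductase that recycles oxidised glutathione, had log2 fold changes of 0.08 and 0.23, and 15.4% of the exon bases of Gss overlap genes on the opposite strand. Gsr passed as higher without DOX 2 (adjusted p = 0.0475), in a range of 0.0475 to 0.740 and beside 0.219 with all libraries.

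NADPH, which Gsr and thioredoxin reductase consume, comes in part from malic enzyme and from glucose-6-phosphate dehydrogenase. Me1, cytosolic malic enzyme, had 87.9, 101 and 52.1 CPM in DOX samples and 195, 125 and 168 CPM in PBS samples. It was 2.03-fold lower in DOX (log2 fold change -1.02, SE 0.26, adjusted p = 0.0244), with no overlap. The call was lost without DOX 1 (adjusted p = 0.0760), PBS 1 (0.0553) or PBS 3 (0.0794) and with no filter (0.103), in a range of 5.83e-05 to 0.103. A pseudogene, Gm7049, holds 24.8% of the 50-base runs of Me1. G6pdx, glucose-6-phosphate dehydrogenase, stood at 23.4, 23.0 and 23.2 CPM in DOX samples and 23.3, 18.0 and 18.2 CPM in PBS samples, with a log2 fold change of 0.23 (adjusted p = 0.195). Of its exon bases, 13.6% overlap Ikbkg on the opposite strand.

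Ugdh, which oxidises UDP-glucose to the UDP-glucuronate used in conjugating drugs and bilirubin, showed the largest fall of the 39 genes. Lying at chr5:65413207-65435842 on the minus strand, it was measured at 268, 224 and 127 CPM in DOX samples, against 535, 625 and 501 CPM in PBS samples. Even the highest DOX value, in DOX 1, lay far below the lowest PBS value, and DOX 3 was lowest. The fall was 2.68-fold (log2 fold change -1.42, SE 0.24, adjusted p = 0.00365).

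Thioredoxin reductase 1, thioredoxin, peroxiredoxin 1 and sulfiredoxin form the thioredoxin branch, which reduces peroxides and oxidised protein thiols. Srxn1, the sulfiredoxin that repairs overoxidised peroxiredoxins, fell. It stood at 114, 114 and 96.8 CPM in DOX samples and 158, 232 and 142 CPM in PBS samples, with PBS 2 highest (log2 fold change -0.71, SE 0.17, adjusted p = 0.0112). Txnrd1, Prdx1 and Txn1 had log2 fold changes of -0.18, -0.24 and -0.07 and did not pass (adjusted p = 0.259, 0.227 and 0.730). On library totals alone Txnrd1 (0.0355, in a range of 0.0355 to 0.574) and Prdx1 (0.0484, in a range of 0.0484 to 0.607) passed as lower.

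Nqo1, the quinone reductase often read as a sign of NRF2 activity, had 44.3, 27.8 and 41.6 CPM in DOX samples and 38.6, 67.4 and 29.4 CPM in PBS samples. The groups overlapped widely, PBS 2 held the highest value and PBS 3 was below 2 of the DOX libraries. Nqo1 had a log2 fold change of -0.25 (SE 0.35, adjusted p = 0.636), and its 95% interval of -1.11 to 0.60 includes a 2-fold fall as well as a rise.

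Ephx1, microsomal epoxide hydrolase, was measured at 540.0, 500.4 and 326 CPM in DOX samples, against 784, 839.7 and 804 CPM in PBS samples. It fell by 0.83 on the log2 scale (SE 0.17, adjusted p = 0.00552), and the PBS libraries lay close together. Cbr3, a carbonyl reductase, stood at 4.71, 3.71 and 5.21 CPM in DOX samples and 11.0, 13.3 and 5.97 CPM in PBS samples. It was 2.23-fold lower in DOX (log2 fold change -1.15, SE 0.27, adjusted p = 0.0112), and PBS 3 lay just above the DOX values. Osgin1, a growth inhibitor induced by oxidative stress, had 66.4, 69.8 and 97.4 CPM in DOX samples and 98.3, 163 and 211 CPM in PBS samples. The highest DOX and lowest PBS values were less than 1 CPM apart (log2 fold change -1.02, SE 0.29, adjusted p = 0.0410). Its call was lost without DOX 1 (adjusted p = 0.142), DOX 2 (0.164), PBS 2 (0.113) or PBS 3 (0.0658) and with no filter (0.144), in a range of 0.000145 to 0.164. Akr1b8, an aldo-keto reductase, and Abcc1, an exporter of glutathione conjugates, had log2 fold changes of -0.21 and 0.10, with 95% intervals of -0.54 to 0.12 and -0.17 to 0.38.

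**Figure D4:**
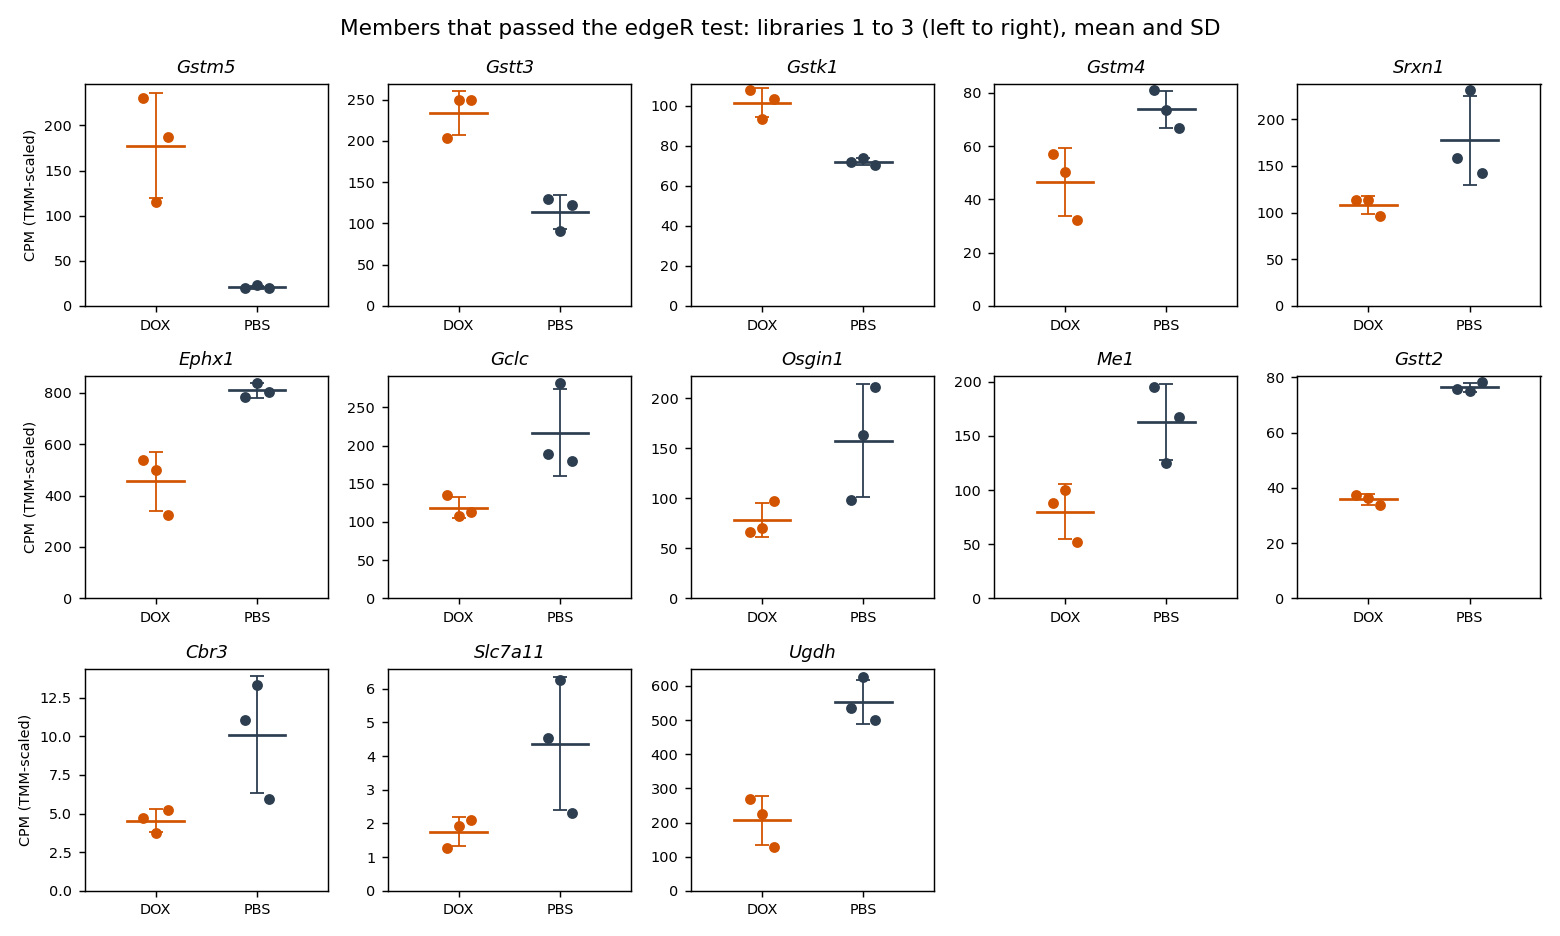
Level of the 13 genes that passed the test, in TMM-scaled CPM, with DOX left and PBS right in each panel; points are libraries 1 to 3 from left to right, lines the mean and bars the SD over 3 libraries. Gstm5, Gstt2 and Gstt3 are widely separated, whereas the nearest points of Slc7a11, Cbr3 and Osgin1 almost touch.

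The libraries of a group did not rank evenly over these genes. DOX 1 was the highest DOX library for 29 of the 39 members, against 32.1% of all genes tested. PBS 2 was the highest PBS library for 22 of the 39 members and for 14 of the 20 that are not transferases, against 33.9% of all genes tested. Gclc, Slc7a11, Ugdh, Srxn1, Nqo1, Cbr3, Ephx1 and Gsta1 were all highest in PBS 2. Without PBS 2, 7 members fell and 3 rose, while the falls over all genes went from 2062 to 1305. The members that fell numbered 8 without DOX 1, PBS 1 or PBS 3, 9 without DOX 2 and 10 without DOX 3. The 3 falls no longer called without PBS 2 were Gstm4, Slc7a11 and Osgin1. Each of these calls was also lost when some other library was left out.

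**Figure D5:**
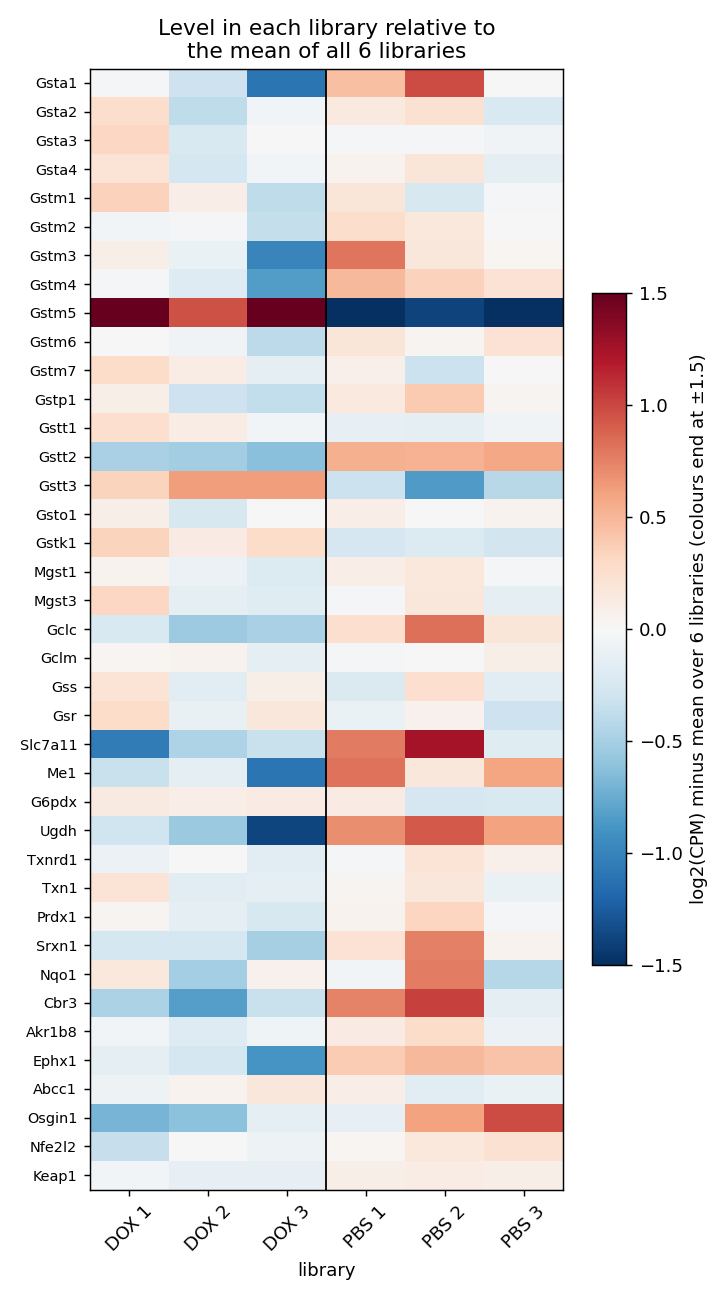
Level of each of the 39 genes in each library as log2(CPM) minus the mean over the 6 libraries, DOX libraries left of the line and PBS libraries right, with colours ending at ±1.5. The Gstm5 row is red in DOX and blue in PBS, and the PBS 2 column is the reddest for Gclc, Slc7a11, Srxn1, Nqo1 and Cbr3.

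A wider list of 100 genes of the same pathways was counted alongside, of which 96 were tested. In it 17 genes rose and 15 fell (17.7% and 15.6%, against 13.5% and 14.0% of all genes), and the median log2 fold change was -0.0044. Scaled by library totals alone, 8 rose and 29 fell. The number that rose was 11 without DOX 1, DOX 3 or PBS 1, and 10 without PBS 2 or PBS 3. The number that fell was 10 without DOX 3 or PBS 3. Of the 32 genes, 18 were called under all 12 alternatives, 8 of them higher and 10 lower, and 14 lost the call under at least 1.

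Among genes of cysteine supply, Cbs and Cth, which make cysteine from homocysteine, rose together. Cbs stood at 366, 357 and 332 CPM in DOX samples, against 158, 153 and 159 CPM in PBS samples (log2 fold change 1.17, SE 0.11, adjusted p = 8.48e-05). Cth stood at 765, 889 and 914 CPM in DOX samples, against 461, 451 and 485 CPM in PBS samples (log2 fold change 0.88, SE 0.12, adjusted p = 0.000814). The list of glutathione breakdown, peroxidases and cysteine supply had 6 genes higher and 2 lower of 21 (28.6% and 9.52%, against 13.5% and 14.0% of all genes tested). On library totals alone 4 of the 6 rises did not pass, which were Gpx3 (adjusted p = 0.0793), Glrx (0.132), Glrx2 (0.144) and Hagh (0.150). These were the highest values over their alternatives, whose lowest were 0.00310, 0.00332, 0.0220 and 0.0106. Single libraries left out also cost calls: Gpx3 without DOX 3, PBS 2 or PBS 3, and Glrx without DOX 3, PBS 1 or PBS 3. Glrx2 was lost without DOX 1, PBS 1, PBS 2 or PBS 3, and Hagh without DOX 1, PBS 1 or PBS 2. Cbs and Cth passed under all 12 alternatives. Of the falls, that of Gpx2 was lost without DOX 1, DOX 3, PBS 1 or PBS 3.

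Of 28 further NRF2 target genes, 4 rose and 9 fell (14.3% and 32.1%, against 13.5% and 14.0% of all genes tested). The share that rose is near that of all genes. Cyp2a5, among the 9 that fell, is also in the list of pericentral hepatocyte markers. Of the 9 falls, 4 lost the call under some of the 12 alternatives: Slc48a1 under 9, Abcc2 under 6, Abcc4 under 5 and Ugt1a6a under 3. Hmox1, the heme oxygenase that NRF2 and heme both induce, was measured at 391, 354 and 334 CPM in DOX samples, against 181, 224 and 184 CPM in PBS samples. It rose 1.83-fold (log2 fold change 0.87, SE 0.13, adjusted p = 0.000920), with no overlap. Akr1b7, an aldo-keto reductase, rose by the same 0.87 on the log2 scale (adjusted p = 0.000901). Ppp1r15a and Trib3, the other 2 that rose, are best known as targets of the stress factor ATF4. The falls of smallest p were those of the aldehyde dehydrogenase Aldh3a2 (log2 fold change -1.44, adjusted p = 7.66e-05) and the aldehyde oxidase Aox1 (-0.75, adjusted p = 0.000679).

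Of 14 partners and regulators of NRF2, 2 rose and 3 fell (14.3% and 21.4%), shares near those of all genes tested (13.5% and 14.0%). Cul3 and Rbx1, which with KEAP1 form the ligase that marks NRF2, rose by 0.35 and 0.33 on the log2 scale (adjusted p = 0.0231 and 0.0317). Both calls were lost on library totals alone (0.157 for Cul3 and 0.237 for Rbx1) and when any library but DOX 2 was left out, in ranges of 0.0103 to 0.157 and 0.0117 to 0.237. Nfe2l1, a relative of NRF2 that drives proteasome genes, had 81.4, 91.1 and 76.9 CPM in DOX samples and 132, 145 and 159.8 CPM in PBS samples (log2 fold change -0.81, SE 0.11, adjusted p = 0.000812). Maff, a small MAF partner, fell by 0.93 on the log2 scale with an adjusted p of 0.00148. Btrc, part of another ligase that acts on NRF2, fell by 0.65 with an adjusted p of 0.00432. In the wider thioredoxin and antioxidant list of 18 genes, 4 rose (Txn2, Txnrd3, Prdx5 and Sesn1) and 1 fell (22.2% and 5.56%). The gene that fell was Cat, catalase, at -0.60 on the log2 scale. The rise of Txnrd3 was lost on library totals alone (adjusted p = 0.138) and without any one of DOX 1, DOX 2, DOX 3, PBS 2 or PBS 3, in a range of 0.0232 to 0.144. That of Prdx5 was lost on library totals alone (adjusted p = 0.143) and without any one library but DOX 2, in a range of 0.00399 to 0.143. Of 8 further NADPH genes 1 rose, Pgls, whose call was lost on library totals alone (adjusted p = 0.0699) and without PBS 3, in a range of 0.00154 to 0.0699. Of the 7 other transferases tested 0 passed by edgeR, 3 had an unadjusted p under 0.05 and 1, Gstz1, passed by DESeq2.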

How the data were processed

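Liver messenger RNA of 3 DOX and 3 PBS samples was measured by RNA sequencing after RNeasy extraction and SMARTER library preparation, per the labels' protocols. The authors deposited counts per gene symbol, whole numbers with no normalization, and FPKM values for the same libraries. Count divided by FPKM gave 1 gene length in all libraries, to a relative difference of 1.84e-06, so the FPKM add no measurement. The submitters' processing notes list GRCm38, mm10 and hg38 as builds without saying what each was for. Which aligner, counter, strand setting and annotation were used is not given in the sources used here, so overlapping, antisense and near-identical genes are uncertain. The tables held 0 columns of other samples and 0 entries that name no gene.

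Columns were matched to samples by title. Genes were kept by filterByExpr (minimum count 10, minimum total 15), which left 14681 of 22183, and scaled by TMM. Factors were 0.938, 0.933 and 0.970 for DOX 1 to 3 and 1.07, 1.08 and 1.02 for PBS 1 to 3. DOX was tested against PBS by edgeR's quasi-likelihood test (edgeR 4.0.16, R 4.3.3), with group as the only term and Benjamini-Hochberg adjustment over all genes tested, and calls were made at 0.05. Every adjusted p in the text comes from this test unless DESeq2 (1.42.0) or another of the alternatives listed below is named. Ranges of adjusted p run over all 12 alternatives, with DESeq2 among them. Levels between genes are TMM-scaled counts per kilobase of the recovered length. Libraries of a group differed by 30.0 to 81.3 in chi-square per degree of freedom, above counting noise, so the files were each counted as 1 library. This does not show whether they came from separate animals or are preparations of 1 liver. The edgeR fit was tested on counts simulated from the fitted levels and dispersions, with 100 genes changed 2-fold and 100 changed 4-fold. It called 68% of the 2-fold and 94% of the 4-fold changes, and 7.43% of its calls were unchanged genes.

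The members and lists were chosen with earlier results of these data known. Values in every library are given for Nfe2l2, Keap1, Nqo1, Gclc and Gclm, for called members with a log2 fold change of at least 1 in size, and for the member of smallest p in each role. Up to 4 called genes of the wider list in each direction were named by p, plus Hmox1. Gstm1, Gstm4, Gstt1, Gstk1, Gstp1, G6pdx, the other members named with values, Ppp1r15a, Trib3, Cul3, Rbx1, Btrc, Cat, Txn2, Txnrd3, Prdx5, Sesn1, Gpx2, Gpx3, Glrx, Glrx2, Hagh, Slc48a1, Abcc2, Abcc4, Ugt1a6a, Spp1, Pgls, Gstz1 and the genes that share sequence with members were added after their values were seen. So were Alb, Pck1, Gpnmb and Cyp2a5 of the marker lists. Promoter windows, gene positions and strands came from RefSeq (GRCm38.p6) and GENCODE M21, and 39 of 39 members had a position. Coding sequences were compared by global alignment of the longest annotated one (Biopython 1.88). Alternatives were size factors by RLE, library totals alone, no filter or a filter of 1 CPM in 3 libraries, DESeq2, the replicate number as a block, and each library left out.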

Additional observations from a re-analysis of the deposited data

How the results depend on the processing

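Of the 13 called members, 9 kept their direction and their call under all 12 alternatives, and 4 (Gstm4, Slc7a11, Me1 and Osgin1) lost the call under at least 1. Of 26 uncalled members, 10 passed under at least 1. No called member changed direction. Library totals alone moved the counts most: 1028 genes rose and 3429 fell over all genes, 17 members fell, and 8 genes of the wider list rose and 29 fell. With single libraries left out, all genes gave 1208 to 2440 higher and 1305 to 2348 lower (1208 higher and 1329 lower without DOX 3, 1233 and 1305 without PBS 2, 1229 higher without PBS 3), members 3 to 4 higher and 7 to 10 lower, and the wider list 10 to 19 higher and 10 to 18 lower. The ratio of the summed omega and kappa level was 1.05 with the deposited FPKM and 1.17 with TMM.

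The replicate numbers did not pair the samples. Deviations of same-numbered libraries correlated at 0.119, -0.107 and -0.158, and 2 of 6 libraries correlated best with their own number. With the replicate block 1633 genes rose and 1849 fell, 3 members rose and 12 fell, and 13 genes of the wider list rose and 14 fell. Gsta1 (adjusted p = 0.00246) and Gstm3 (0.0169) then passed as lower, in ranges of 0.00246 to 0.244 and 0.0169 to 0.375 over the alternatives. Depth limits Slc7a11 most, at 48 to 66 counts in DOX libraries and 99 to 274 in PBS libraries.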
